A study of Mus musculus with 2 samples.

Results

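MHC class I molecules display peptides from inside a cell to CD8 T cells. Each is a heavy chain held together with the light chain beta-2 microglobulin. In C57BL/6 mice the classical heavy chains are H2-K and H2-D, and NK cells read their absence through inhibitory receptors. The nonclassical chains have narrower roles: Qa-1 (H2-T23) shows leader peptides of other class I chains to the CD94/NKG2A receptor, H2-M3 presents peptides that begin with formyl-methionine, and H2-T22 is a ligand of gamma-delta T cell receptors. Transcription of most class I genes is raised by interferon-gamma, and tumour cells of the B16 line are known for low class I at the surface unless exposed to it.

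The 9 genes described here were chosen by symbol: the light chain B2m, the classical heavy chains H2-K1 and H2-D1, and the nonclassical heavy chains H2-Q4, H2-Q6, H2-Q7, H2-T22, H2-T23 and H2-M3. All 9 were found, with 1 row each, among the 31053 genes listed. Single-cell libraries came from subcutaneous tumours of B16-F10, a pigmented C57BL/6 melanoma line, in wild-type female C57BL/6 mice implanted at 10 weeks of age. One group received an OX40 agonist and the other was labelled control. OX40 (Tnfrsf4) is a costimulatory receptor of activated T cells. Live CD45-positive, DAPI-negative cells were sorted and run as 1 droplet library per group. The number of mice per library, the dose and the timing are not stated in the labels.

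The OX40 agonist library held 8569 barcodes, 118059108 UMIs (unique molecular identifiers, each standing for 1 captured RNA molecule) and a median of 7309 UMIs per barcode. The control library held 7187 barcodes, 114026695 UMIs and a median of 8927. After filtering, 6986 OX40 agonist and 5989 control cells were kept, and the libraries shared 18 barcode sequences. Cells were assigned to types by marker genes that include none of the 9. Despite the sort for CD45, 621 cells of the OX40 agonist library and 453 of the control library carried the melanocyte genes Pmel and Dct. Pmel had 4355 CPM (UMIs of a gene per 1000000 UMIs of the class) in the OX40 agonist and 4738 CPM in the control melanoma cells, and Ptprc, the gene of CD45, had 3.18 CPM with the OX40 agonist and 7.37 CPM in control. Their levels describe the melanoma cells that passed the sort, not the tumour. With 1 library per group no difference has a replicate check. Treatment and library cannot be told apart, no p-value is given, and the 95% intervals in parentheses cover counting error only.

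Of the 9 genes, 8 lie on chromosome 17 and B2m on chromosome 2 (GRCm38, GENCODE M21). H2-K1 spans chr17:33996017-34000347 on the minus strand and H2-D1 chr17:35262730-35267499 on the plus strand. The Q genes follow, with H2-Q4 at chr17:35379617-35385290, H2-Q6 at chr17:35424850-35430055 and H2-Q7 at chr17:35439155-35443773, all on the plus strand. H2-T23 (chr17:36029773-36032855) and H2-T22 (chr17:36037128-36042747) lie on the minus strand, H2-M3 at chr17:37270220-37274484 and B2m at chr2:122147686-122153083 on the plus strand. All are protein-coding.

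Because the class I genes arose by duplication, reads can match several of them. In 50-base windows over the last 300 bases of each annotated transcript, where 3′ libraries read, 49% of the windows of H2-T22 also occurred in H2-T10, and 27.7% of those of H2-Q6 in H2-Q7. H2-K1 shared 7.7% of its windows with H2-D1, and H2-D1 shared 5.35% with H2-K1. The windows of H2-Q7, H2-M3 and B2m occurred in no other gene. For H2-Q7 this holds for its own last 300 bases only, since windows of H2-Q6 did occur elsewhere in H2-Q7. Over all other genes, H2-T23 shared 50.6% of its windows (most often with Rab33b), H2-Q6 49.4%, H2-T22 49% and H2-Q4 45.4% (most often with Gm43321). Counts of these 4 genes are the least certain because of shared windows, not all of them shared with class I relatives. H2-Q4 shared none with a gene of an H2 symbol, and H2-T23 only 7.97%, with H2-T-ps. The labels do not say how such reads were counted.

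The promoters of the 4 members best measured in melanoma cells are shown because all 4 were lower there in the OX40 agonist library. From cell to cell H2-K1 did not vary with the others, as given below. Each is the 250 bases before the RefSeq start (GRCm38.p6), in the direction of transcription, from chr17:34000348-34000597 (minus strand), chr17:35262844-35263093 (plus), chr17:36042743-36042992 (minus) and chr2:122147437-122147686 (plus). Capitals mark a kappa B sequence (GGGGATTCCCC), an interferon-stimulated response element-like sequence (AGTTTCNNTTCT), a CRE-like sequence (TGACGCG) and an IRF-type repeat (GAAANNGAAA, or its reverse complement in H2-T22). Only exact matches to these letters were marked and counted. Variants were not searched, so lower case does not mean that a related site is absent.
H2-K1: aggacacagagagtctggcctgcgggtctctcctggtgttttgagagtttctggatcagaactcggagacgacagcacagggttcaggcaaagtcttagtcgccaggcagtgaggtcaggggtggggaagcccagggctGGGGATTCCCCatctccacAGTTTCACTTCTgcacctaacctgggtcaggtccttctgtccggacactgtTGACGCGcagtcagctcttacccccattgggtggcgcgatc
H2-D1: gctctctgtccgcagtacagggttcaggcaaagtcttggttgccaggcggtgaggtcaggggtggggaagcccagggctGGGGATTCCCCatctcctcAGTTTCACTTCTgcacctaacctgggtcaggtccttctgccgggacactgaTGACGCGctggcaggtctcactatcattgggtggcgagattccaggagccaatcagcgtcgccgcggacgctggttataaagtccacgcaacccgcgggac
H2-T22: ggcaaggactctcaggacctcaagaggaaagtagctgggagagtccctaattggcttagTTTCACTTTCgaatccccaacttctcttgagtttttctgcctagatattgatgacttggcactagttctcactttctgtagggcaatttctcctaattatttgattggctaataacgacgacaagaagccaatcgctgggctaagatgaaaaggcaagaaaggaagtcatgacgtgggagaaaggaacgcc
B2m: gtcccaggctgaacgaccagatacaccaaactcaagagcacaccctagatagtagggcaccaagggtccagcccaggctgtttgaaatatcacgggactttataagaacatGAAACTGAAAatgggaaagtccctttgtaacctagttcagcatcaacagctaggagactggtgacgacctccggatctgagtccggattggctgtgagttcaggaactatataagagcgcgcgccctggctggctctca
The letters were set after reading these promoters, both strands were searched, and no 2 of the capitalised matches overlap.

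AGTTTCNNTTCT occurred in 5 of the 9 members (H2-K1, H2-D1, H2-Q4, H2-Q6 and H2-Q7) and in 0.17% of the 27025 RefSeq promoters of the same length. GAAANNGAAA occurred in B2m, H2-T22 and H2-T23, against 3.04% of all promoters. GGGGATTCCCC was found in H2-K1, H2-D1 and H2-Q6, against 0.0222%, and TGACGCG in H2-K1 and H2-D1, against 1.54%. CCAAT, not capitalised above, was in all 9 members and in 34.5% of promoters. In H2-D1 the kappa B match began 171 bases and the AGTTTCNNTTCT match 152 bases before the start, and in H2-K1 they began 111 and 92 bases before it, so the 2 genes had them in the same order and spacing. Since the letters were set after reading promoters of members, matches in those members were given in advance. Other members can share them through duplication, and the members are themselves among all promoters. The percentages therefore cannot test whether members carry these letters more often than other genes. The matches describe letters in a window and say nothing of which factor was bound in these cells.

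In melanoma cells the class I light chain, the classical heavy chains and H2-T22 were all lower in the OX40 agonist library than in the control library. B2m had 36243 UMIs or 929.9 CPM (920.4 to 939.6) in OX40 agonist melanoma cells and 58343 UMIs or 1929 CPM (1913 to 1945) in control melanoma cells. That is 0.482-fold (0.476 to 0.488), a log2 ratio of -1.04 computed on CPM + 10 as all log2 ratios here. The classical chain H2-D1 had 10062 UMIs or 258 CPM (253 to 263) with the OX40 agonist and 20881 UMIs or 690.3 CPM (681 to 699.7) in control, 0.374-fold (0.365 to 0.383). H2-T22 had 49.1 CPM (46.9 to 51.3) with the OX40 agonist and 121 CPM (118 to 125) in control, 0.404-fold (0.382 to 0.427). H2-K1, the other classical chain, had only 32.7 CPM (31 to 34.6) with the OX40 agonist and 64.6 CPM (61.8 to 67.5) in control, 0.507-fold (0.472 to 0.544).

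These 4 members were at or above 10 CPM in both libraries, and all 4 were lower by 1.5-fold or more, as were 1.23% of the 7829 genes that reached 10 CPM in either library. Their median log2 ratio was -1.10, beside 0.03 over all those genes. The counting intervals of their folds were also wholly below 1, which held for 17.7% of genes. The call of H2-K1 was not stable: its log2 ratio of -0.80 was -0.57, short of 1.5-fold, with no doublet removal, and again after subtracting the leukocyte RNA estimated from 4 leukocyte genes. The other 5 members stayed under 10 CPM in both libraries and are not in these counts. In OX40 agonist melanoma cells H2-T23 had 8.13 CPM, H2-Q7 4.11, H2-M3 1.26, H2-Q6 0.821 and H2-Q4 0.436. In control melanoma cells H2-T23 had 9.92 CPM, H2-Q7 8.69, H2-M3 2.41, H2-Q6 1.65 and H2-Q4 1.52. Among the 9, H2-T23 had the fold nearest 1, at 0.82 (0.698 to 0.964).

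**Figure D1:**
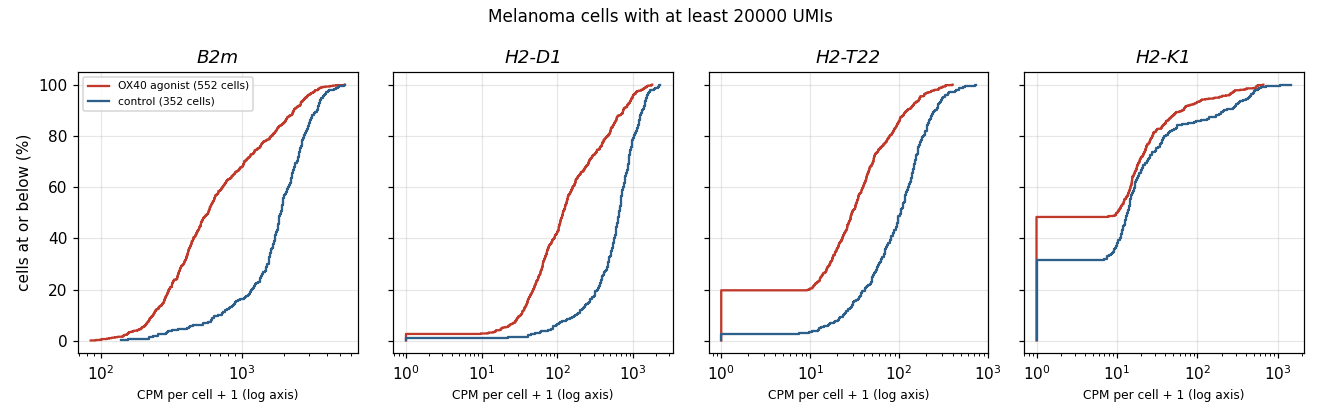
Share of melanoma cells (y axis, percent) at or below a given level per cell (x axis, CPM + 1, log axis) for 4 class I genes, over 552 OX40 agonist and 352 control cells with at least 20000 UMIs. For B2m, H2-D1 and H2-T22 the OX40 agonist curve lies to the left of the control curve over most of its course, while for H2-K1 both curves start with a step of cells with no UMI, 48.4% with the OX40 agonist and 31.5% in control.

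The lower levels of B2m, H2-D1 and H2-T22 were spread over most melanoma cells, whereas those of H2-K1 were set mainly by its highest cells. Among cells with at least 20000 UMIs, B2m ranged from 84 to 5401 CPM per cell with a median of 577 in 552 OX40 agonist cells, and from 139 to 5409 CPM with a median of 1895 in 352 control cells. The ranges overlapped almost fully, yet 84.1% of OX40 agonist cells were below the control median. H2-D1 had a median of 118 CPM per cell with the OX40 agonist and 658 CPM in control, with 88% of OX40 agonist cells below the control median. H2-T22 had a median of 28.5 CPM per cell with the OX40 agonist and 103 CPM in control, with 87.3% below. H2-K1 had a median of 9.09 CPM per cell with the OX40 agonist and 12.6 CPM in control, with 56.9% below. Its 75th percentile over cells was 21.8 CPM with the OX40 agonist and 29.6 CPM in control, and its 90th percentile 63.8 CPM with the OX40 agonist and 214 CPM in control.

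Depth differed between and within the libraries, so shares of positive cells were compared after thinning each cell to 1000 UMIs, which left out 16 OX40 agonist and 35 control melanoma cells. B2m then had a UMI in 53.2% (49.2 to 57.3) of 605 OX40 agonist cells and in 77.5% (73.2 to 81.4) of 418 control cells. H2-D1 was seen in 19.5% (16.4 to 22.9) of OX40 agonist and 49.3% (44.4 to 54.2) of control cells. H2-K1 was seen in 3.64% (2.29 to 5.45) of OX40 agonist and 8.37% (5.9 to 11.5) of control cells, and the intervals did not overlap. H2-T22 was seen in 4.3% (2.83 to 6.23) of OX40 agonist and 6.94% (4.7 to 9.81) of control cells, where the intervals overlapped. Unthinned, H2-D1 was seen in 90% of OX40 agonist and 88.5% of control cells, and H2-K1 in 47.2% of OX40 agonist and 58.9% of control cells. No gated cell type is known to lack class I, so no background share from free RNA could be set beside these.

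Relative to the leukocytes of the same library, the members of melanoma cells fell into 2 sets on the CPM scale. B2m in melanoma cells was at 33.3% of its level over all gated leukocytes in the OX40 agonist library and 65.8% in the control library, H2-T22 at 35.2% with the OX40 agonist and 70% in control, and H2-D1 at 12.8% with the OX40 agonist and 30.1% in control. Counted per cell the order turned for B2m and H2-T22 in both libraries and for H2-D1 in control, since melanoma cells held more UMIs than leukocytes. B2m had 58.4 UMIs per melanoma cell and 27.9 per leukocyte with the OX40 agonist, and 129 per melanoma cell and 37.6 per leukocyte in control. H2-T22 had 3.08 UMIs per melanoma cell and 1.39 per leukocyte with the OX40 agonist, and 8.11 per melanoma cell and 2.23 per leukocyte in control. H2-D1 had 16.2 UMIs per melanoma cell and 20.1 per leukocyte with the OX40 agonist, and 46.1 per melanoma cell and 29.4 per leukocyte in control. In CPM, the other 6 members were between 0.932% (H2-Q4) and 2.77% (H2-T23) with the OX40 agonist, and between 1.57% (H2-Q6) and 3.4% (H2-M3) in control. H2-K1 was among these low members, at 1.59% with the OX40 agonist and 2.71% in control. The leukocyte genes Ptprc, Cd52, Coro1a and Laptm5 together had 39.2 CPM in OX40 agonist melanoma cells and 80 CPM in control melanoma cells. That was 0.9% of their leukocyte level with the OX40 agonist and 1.63% in control. The same share of the leukocyte level would amount in OX40 agonist cells to 18.6 CPM of H2-K1, 18.1 of H2-D1, 25.1 of B2m and 1.25 of H2-T22. In control cells it would amount to 38.8 CPM of H2-K1, 37.3 of H2-D1, 47.6 of B2m and 2.82 of H2-T22.

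Leukocyte RNA was thus also lower in OX40 agonist melanoma droplets, and was followed by taking only melanoma cells without a UMI of those 4 genes, 280 in the OX40 agonist library and 116 in the control library. In them B2m had 1009 CPM with the OX40 agonist and 2175 CPM in control, 0.464-fold (0.452 to 0.476), and H2-D1 had 263 CPM with the OX40 agonist and 795 CPM in control, 0.331-fold (0.316 to 0.346). H2-T22 had 51 CPM with the OX40 agonist and 146 CPM in control, 0.35-fold (0.314 to 0.39). H2-K1 had 17.9 CPM with the OX40 agonist and 44.7 CPM in control, 0.401-fold (0.332 to 0.486), on 268 UMIs with the OX40 agonist and 189 in control. For these 4 genes the folds were at least as far below 1 as in all melanoma cells. The control cells kept by this rule were shallower, with a median of 13220.0 UMIs against 56692 in the OX40 agonist library.

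The balance of the 2 classical chains set melanoma cells apart from every leukocyte type. There were 0.127 H2-K1 UMIs per H2-D1 UMI (0.12 to 0.134) in OX40 agonist melanoma cells and 0.0936 (0.0893 to 0.098) in control melanoma cells. In the leukocyte types this ratio was between 0.564 in neutrophils and 1.33 in CD8 and regulatory T cells with the OX40 agonist, and between 0.61 in neutrophils and 1.35 in conventional CD4 T cells in control. These are ratios of 3′ tag counts, not scaled by length, and are compared across cell types only.

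Within melanoma cells of at least 20000 UMIs, B2m, H2-D1 and H2-T22 varied together from cell to cell and H2-K1 did not vary with them. In 552 OX40 agonist cells Spearman's rho of CPM per cell was 0.81 for H2-D1 with B2m and 0.57 for H2-T22 with B2m, but 0.10 for H2-K1 with B2m and 0.14 for H2-K1 with H2-D1. In 352 control cells it was 0.79 for H2-D1 with B2m and 0.64 for H2-T22 with B2m, but -0.00 for H2-K1 with B2m and 0.09 for H2-K1 with H2-D1. H2-K1 and the summed leukocyte genes gave 0.18 with the OX40 agonist and 0.23 in control, and Actb with B2m gave 0.09 with the OX40 agonist and -0.04 in control. In CD8 T cells H2-K1 and H2-D1 gave 0.65 over 1258 OX40 agonist cells and 0.74 over 1638 control cells, and in mononuclear phagocytes 0.54 in both libraries. Cells of 1 library share its depth and free RNA, and low counts as those of H2-K1 in melanoma cells limit rho, so these values are descriptions.

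Genes that supply and load class I peptides were lower in the same melanoma cells. Of 13 such genes, all at or above 10 CPM, 9 were lower by 1.5-fold or more, against the 1.23% of genes above, and 0 were higher by as much, against 0.0128%, with a median log2 ratio of -0.94. Psmb9 and Psmb8, the interferon-inducible immunoproteasome subunits, had 34.7 and 28.2 CPM in OX40 agonist cells, against 112 and 90.9 CPM in control cells. The folds were 0.311 (0.292 to 0.332) for Psmb9 and 0.31 (0.289 to 0.333) for Psmb8. The peptide transporter genes Tap1 and Tap2 had 15.3 and 13.2 CPM with the OX40 agonist, against 50.5 and 40.1 CPM in control, 0.303-fold (0.275 to 0.333) and 0.33-fold (0.298 to 0.367). The 3 members with a positive log2 ratio were the general chaperones Calr (0.06), Canx (0.29) and Pdia3 (0.11), all under 1.5-fold.

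Among 12 regulators of class I transcription, 8 reached 10 CPM in either library and 2 of these were lower by 1.5-fold or more, against the 1.23% of genes above. One of them, Irf1, which binds interferon response elements, had 25 CPM with the OX40 agonist and 59.2 CPM in control, 0.422-fold (0.39 to 0.457). Nlrc5, the class I transactivator, had 180 UMIs with the OX40 agonist and 307 UMIs in control, 0.455-fold (0.376 to 0.549), but its log2 ratio of -0.46 with the added 10 CPM was short of the 1.5-fold rule. Irf9 had 7.57 CPM with the OX40 agonist and 15.4 CPM in control, a log2 ratio of -0.53. Nlrc5 and Irf9 passed the 10 CPM minimum through the control library alone, so their place among the 8 supports nothing. Rela and Nfkb1, subunits of NF-kappa B, had log2 ratios of 0.02 and 0.17.

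Of the relatives not among the 9, 23 were listed, 16 were in the files and 3 reached 10 CPM in melanoma cells. These do not serve peptide display to CD8 T cells: Fcgrt is the neonatal Fc receptor, Hfe a regulator of iron uptake and Azgp1 a secreted class I-like protein. Fcgrt had 21.7 CPM with the OX40 agonist and 23.9 CPM in control, Hfe had 21.3 CPM with the OX40 agonist and 21 CPM in control, and Azgp1 had 23.3 CPM with the OX40 agonist and 18.1 CPM in control. None was past 1.5-fold, and their median log2 ratio was 0.01.

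**Figure D2:**
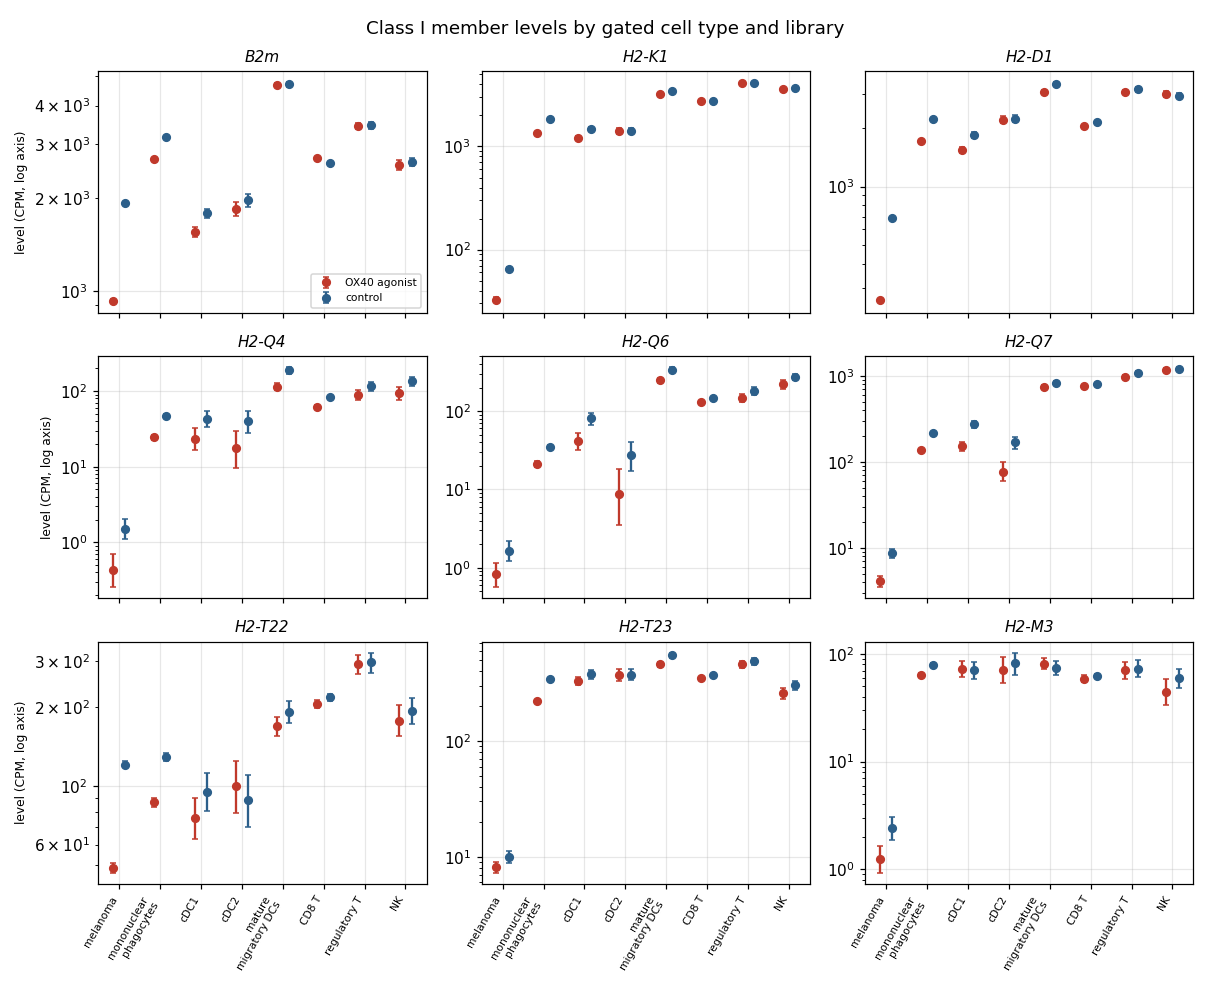
Level of each of the 9 class I genes (y axis, CPM of summed UMIs, log axis, ranges differ between panels) in 8 cell types with at least 50 cells in each library, OX40 agonist in red to the left and control in blue to the right. Bars are 95% counting intervals; melanoma cells lie 1 or more decades below leukocytes for 6 genes, but near them for B2m and H2-T22.

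Across the leukocyte types with at least 50 cells in each library, each chain had its own order. B2m was highest in mature migratory DCs, the Ccr7-positive dendritic cells, with 4676 CPM (4606 to 4747) in the OX40 agonist library and 4687 (4599 to 4777) in the control library. Regulatory T cells followed with 3431 CPM with the OX40 agonist and 3445 CPM in control, and cDC1, the cross-presenting dendritic cells, were the lowest leukocyte type with 1552 CPM with the OX40 agonist and 1785 CPM in control. Melanoma cells were below all of them with the OX40 agonist. In control their 1929 CPM (1913 to 1945) stood between cDC1 and cDC2, whose interval of 1879 to 2065 CPM overlapped theirs.

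H2-K1 was highest in regulatory T cells with 4114 CPM (4024 to 4206) in the OX40 agonist library and 4143 (4045 to 4243) in control, ahead of NK cells with 3607 CPM with the OX40 agonist and 3685 CPM in control. CD8 T cells had 2737 CPM with the OX40 agonist and 2747 CPM in control. Phagocytes had 1363 CPM with the OX40 agonist and 1833 CPM in control, and cDC1 had 1208 CPM with the OX40 agonist and 1471 CPM in control. H2-D1 was highest in regulatory T cells, mature migratory DCs and NK cells. Regulatory T cells and mature migratory DCs had 3092 (3013 to 3171) and 3090.2 CPM (3033 to 3148) with the OX40 agonist, where NK cells had 3010.1 CPM (2913 to 3110.1) and all 3 intervals overlapped. In control regulatory T cells and mature migratory DCs had 3184 (3098 to 3272) and 3406 CPM (3331 to 3483), NK cells had 2952 CPM (2869 to 3036), and the 3 intervals did not overlap.

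H2-Q7, a gene of the Qa-2 antigen, was highest in NK cells with 1163 CPM (1103 to 1226) in the OX40 agonist library and 1216 (1163 to 1271) in control. T cells, NK cells and mature migratory DCs had 752 to 1163 CPM with the OX40 agonist and 812 to 1216 in control, while cDC1, phagocytes and cDC2 had 77.7 to 153 CPM with the OX40 agonist and 169 to 274 CPM in control. H2-Q6 and H2-Q4 had the same split at lower levels. For H2-Q6, mature migratory DCs had 247 CPM with the OX40 agonist and 339 CPM in control, whereas cDC2 had 8.78 CPM on 7 UMIs with the OX40 agonist and 27.2 CPM on 24 UMIs in control. H2-T22 was highest in regulatory T cells with 292 CPM with the OX40 agonist and 296 CPM in control. B cells, at 50 OX40 agonist and 16 control cells, had 215 and 478 CPM of H2-Q7. H2-T23 was highest in plasmacytoid DCs, with 906 CPM (801 to 1020.2) in 47 OX40 agonist cells and 969.7 (838 to 1116) in 23 control cells. Among the larger types, H2-T23 in mature migratory DCs had 459 CPM with the OX40 agonist and 548 CPM in control, and in regulatory T cells 459 CPM with the OX40 agonist and 487 CPM in control, with overlapping intervals within each library. H2-M3 varied least, between 44.3 and 81.4 CPM with the OX40 agonist and between 59.7 and 81.6 in control over the 7 leukocyte types with at least 50 cells in each library.

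**Figure D3:**
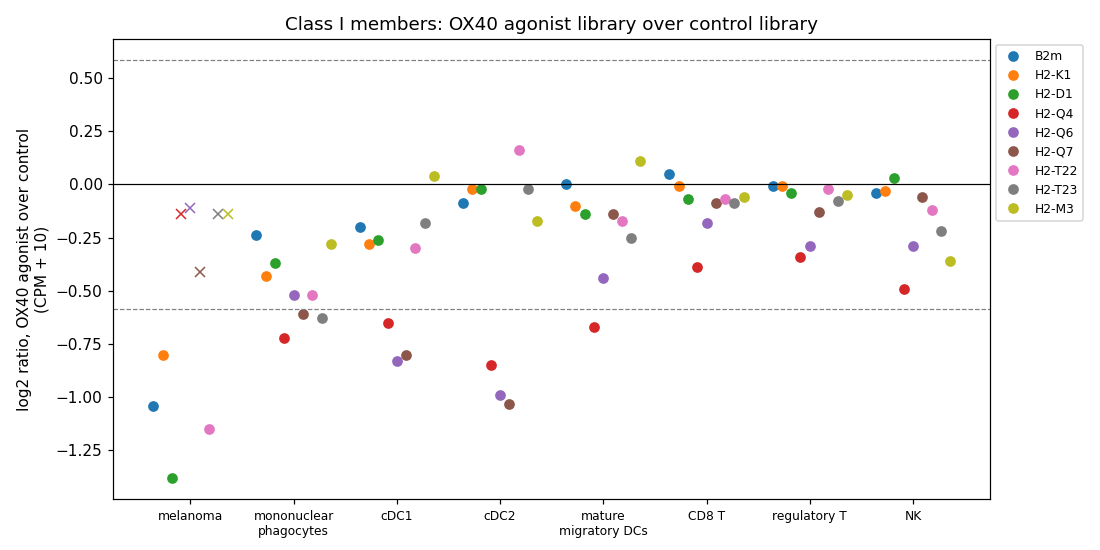
Log2 ratio of OX40 agonist over control (y axis, CPM + 10) for the 9 class I genes in 8 cell types; crosses are genes under 10 CPM in both libraries and dashed lines mark 1.5-fold. In melanoma cells 4 genes lie at -0.80 to -1.38, in mononuclear phagocytes all 9 lie between -0.24 and -0.72, and in CD8 and regulatory T cells all lie between -0.39 and 0.05.

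In mononuclear phagocytes, the macrophages and monocytes of the tumour, all 9 members were lower in the OX40 agonist library, but less so than the 4 in melanoma cells. The median log2 ratio was -0.52, beside 0.01 over all 7072 genes tested, of which 45.8% had a negative log2 ratio. By 1.5-fold or more, 3 of 9 were lower, against 0.82% of genes, and the counting interval was wholly below 1 for 9 of 9, against 20.7%. The phagocytes of the 2 libraries were spread differently over Leiden clusters (groups of cells with similar expression, numbered without a name of their own). Cluster 15 held 284 OX40 agonist and 28 control cells, cluster 8 held 255 OX40 agonist and 74 control cells, cluster 6 held 430 OX40 agonist and 232 control cells, and cluster 0 held 221 OX40 agonist and 360 control cells. With the mix of the C1q-high, Arg1-high and Ly6c2-high subsets held at that of the control library, the median was -0.50. The mix of clusters was not held fixed. H2-Q4, which encodes a secreted class I chain, had 24.5 CPM with the OX40 agonist and 46.8 CPM in control, 0.524-fold (0.478 to 0.574). H2-T23 had 219 CPM with the OX40 agonist and 345 CPM in control, 0.635-fold (0.615 to 0.656), and H2-Q7 had 139 CPM with the OX40 agonist and 217 CPM in control, 0.64-fold (0.615 to 0.666).

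The remaining members did not pass 1.5-fold on the log2(CPM + 10) scale. H2-Q6 had 21.2 CPM in OX40 agonist and 34.8 CPM in control phagocytes, 0.611-fold (0.551 to 0.676), a fold farther from 1 than those of H2-T23 and H2-Q7, and its log2 ratio of -0.52 was -0.08 with cells thinned to 1000 UMIs. H2-T22 had 87.1 CPM with the OX40 agonist and 129 CPM in control, 0.673-fold (0.64 to 0.708). The classical chains were 0.743-fold (0.733 to 0.753) for H2-K1, at 1363 CPM with the OX40 agonist and 1833 CPM in control, and 0.772-fold (0.763 to 0.781) for H2-D1, at 1729 CPM with the OX40 agonist and 2241 CPM in control. H2-M3 was 0.804-fold (0.756 to 0.855) at 63.6 CPM with the OX40 agonist and 79.1 CPM in control. B2m was 0.846-fold (0.838 to 0.854) at 2683 CPM with the OX40 agonist and 3172 CPM in control.

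RNA of other cells moved with these values. A UMI of Cd3d, Cd3e, Cd3g or Trac, genes of the T cell receptor complex, was present in 14.5% of OX40 agonist phagocytes and 25.4% of control phagocytes, and Gzmb, a granzyme of killer cells, had 19.1 CPM with the OX40 agonist and 28.7 CPM in control. In the 2251 OX40 agonist and 1618 control phagocytes without such a UMI the median of the 9 members was -0.49. Phagocytes were also shallower with the OX40 agonist, at a median of 8220.5 UMIs per cell against 9450.5 in control. Cells within 0.05 of the score limit of the phagocyte gate numbered 583, beside 4804 gated phagocytes. The 583 can include cells left outside the gate, so they are not a share of the 4804.

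**Figure D4:**
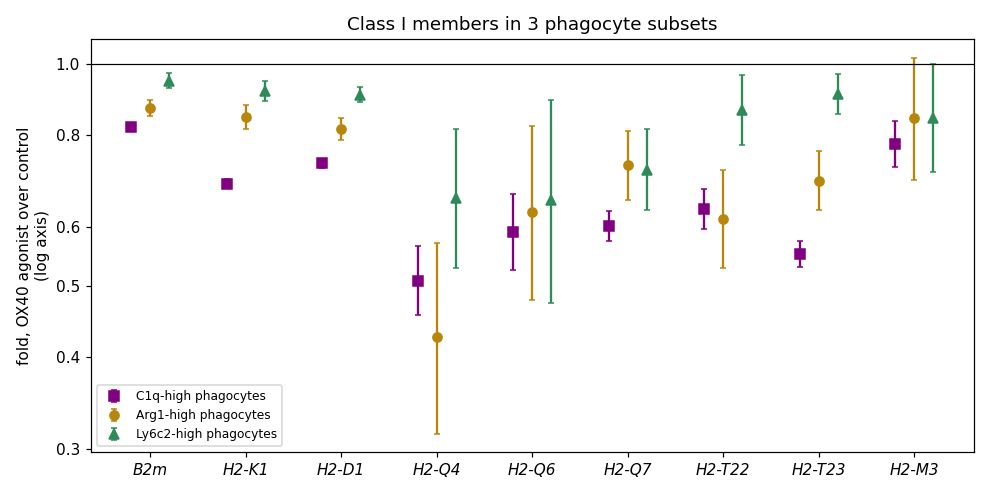
Fold of OX40 agonist over control (y axis, log axis, with 95% counting intervals) for the 9 class I genes in C1q-high, Arg1-high and Ly6c2-high phagocytes. For 8 of the 9 genes Ly6c2-high phagocytes lie nearest to 1, except H2-Q7, where the Arg1-high value is 0.729 and the Ly6c2-high value is 0.719.

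The phagocyte subsets differed in size of the difference. In C1q-high macrophages (1452 OX40 agonist and 1113 control cells) the median of the 9 was -0.56, and 4 of 9 were lower by 1.5-fold or more, against 1.36% of genes. H2-T23 there had 182 CPM with the OX40 agonist and 328 CPM in control, 0.553-fold (0.531 to 0.576), and H2-K1 had 1339.6 CPM with the OX40 agonist and 1946 CPM in control, 0.688-fold (0.678 to 0.699). In Arg1-high cells (451 OX40 agonist and 387 control cells) the median was -0.43 and 2 of 9 were past 1.5-fold, against 1.28% of genes. In Ly6c2-high cells, which carry monocyte genes (731 OX40 agonist and 670 control cells), the median was -0.19 and 0 of 9 were past 1.5-fold, against 0.183% of genes. H2-T23 had 414 CPM with the OX40 agonist and 455 CPM in control there, 0.911-fold (0.856 to 0.969), an interval that did not overlap that of C1q-high cells. The difference between subsets has no replicate test.

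Peptide supply genes were lower in phagocytes in the same direction with smaller ratios. Of 13, 11 had a negative log2 ratio, against 45.8% of genes, and 1, Tap1, was lower by 1.5-fold or more, against 0.82%, with a median of -0.42. Tap1 had 113 CPM with the OX40 agonist and 179 CPM in control, 0.631-fold (0.604 to 0.66). Psmb8 had 557 CPM with the OX40 agonist and 823 CPM in control, 0.677-fold (0.663 to 0.69), and Psmb10, another immunoproteasome subunit, had 231 CPM with the OX40 agonist and 344 CPM in control, 0.672-fold (0.652 to 0.693). Of the transcription regulators 10 of 12 reached 10 CPM, with a median of -0.29. Irf1 had 124 CPM with the OX40 agonist and 182 CPM in control and Irf8, a regulator of macrophage and dendritic cell genes, had 179 CPM with the OX40 agonist and 256 CPM in control.

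The relative with the lowest ratio in phagocytes was H2-M2, a nonclassical class I gene of the M region. It had 92 UMIs or 3.15 CPM with the OX40 agonist and 513 UMIs or 18 CPM in control, 0.175-fold (0.139 to 0.219), and passed the 10 CPM minimum through the control library alone. Most of its UMIs came from C1q-high cells, with 73 UMIs or 3.48 CPM with the OX40 agonist and 483 UMIs or 25.1 CPM in control. Mature migratory DCs, where it was higher, had 62.3 CPM with the OX40 agonist and 92.2 CPM in control, 0.676-fold (0.557 to 0.819). Fcgrt had 62.3 CPM with the OX40 agonist and 68.5 CPM in control and Hfe 30 CPM with the OX40 agonist and 27.8 CPM in control in phagocytes. Of the class I receptors, the inhibitory Pirb had 121 CPM with the OX40 agonist and 156 CPM in control, 0.779-fold (0.745 to 0.815). Klrk1, Klrd1, Cd8b1 and Cd8a are genes of T and NK cells, and their part in the phagocyte values was not tested. Klrk1 had 18.4 CPM with the OX40 agonist and 37.6 CPM in control, Klrd1 had 6.37 CPM with the OX40 agonist and 13.1 CPM in control, Cd8b1 had 6.75 CPM with the OX40 agonist and 12.8 CPM in control, and Cd8a had 6.64 CPM with the OX40 agonist and 12.5 CPM in control.

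In CD8 T cells the differences between the libraries were small. The log2 ratio was negative for 8 of 9 members, against 61.7% of all genes tested. Over 1258 OX40 agonist and 1638 control cells the median log2 ratio was -0.07, beside -0.03 over all 7037 genes, and 0 of 9 were past 1.5-fold, against 0.54% of genes lower and 0.0284% higher. B2m had 2696 CPM with the OX40 agonist and 2599.8 CPM in control, 1.04-fold (1.02 to 1.05), the only one of the 9 intervals wholly above 1, against 11% of genes. The interval was wholly below 1 for 6 of 9, against 21.8% of genes. H2-K1 was 0.996-fold (0.984 to 1.01) and H2-D1 0.955-fold (0.942 to 0.968). H2-Q4 had 61.4 CPM with the OX40 agonist and 83.5 CPM in control, 0.736-fold (0.681 to 0.795), and was the farthest from 1, with a log2 ratio of -0.39 that was -0.81 with cells thinned to 1000 UMIs. The peptide supply genes had a median of -0.03 with 0 of 13 past 1.5-fold, and Tap1 had 189 CPM with the OX40 agonist and 210.2 CPM in control. Ifng, the gene of interferon-gamma, had 528 CPM with the OX40 agonist and 549.8 CPM in control in these cells. Of the receptors, Klrc2, an activating partner of CD94, had 57.3 CPM with the OX40 agonist and 84.8 CPM in control, 0.676-fold (0.625 to 0.732), and Cd160, a receptor of HVEM and class I, had 78.2 CPM with the OX40 agonist and 66.2 CPM in control, 1.18-fold (1.1 to 1.27).

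Regulatory T cells (294 OX40 agonist and 191 control cells) and NK cells (285 OX40 agonist and 285 control cells) likewise had small differences, with medians of -0.05 and -0.12 and 0 of 9 past 1.5-fold in either type, against 2.23% and 2.84% of genes lower. The interval was wholly below 1 for 3 of 9 in each type, against 7.47% of genes in regulatory T cells and 6.25% in NK cells. H2-Q4 was 0.772-fold (0.624 to 0.956) in regulatory T cells and 0.691-fold (0.546 to 0.872) in NK cells, and H2-Q6 was 0.809-fold (0.685 to 0.956) in regulatory T cells and 0.812-fold (0.694 to 0.948) in NK cells. In regulatory T cells B2m was 0.996-fold (0.961 to 1.03) and H2-K1 0.993-fold (0.961 to 1.03). In NK cells H2-D1 was 1.02-fold (0.976 to 1.07), and H2-T23 had 258 CPM with the OX40 agonist and 302 CPM in control, 0.854-fold (0.738 to 0.986).

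Ly49 receptors of NK cells, many of which bind class I, are among the 21 class I receptor genes listed. Of these, 12 reached 10 CPM in NK cells, and 2 were higher with the OX40 agonist by 1.5-fold or more, against 1.39% of genes. A negative log2 ratio was found for 4 of the 12, against 53.7% of genes. Klra9, the inhibitory Ly49I receptor, had 359.5 CPM in OX40 agonist and 217 CPM in control NK cells, 1.65-fold (1.43 to 1.91). Klra8, the Ly49H receptor that binds a cytomegalovirus protein, had 466 CPM with the OX40 agonist and 304 CPM in control, 1.53-fold (1.35 to 1.73). Klra1 was 1.4-fold (1.12 to 1.74) and Klra4 1.28-fold (1.16 to 1.41), both short of 1.5-fold. The Ly49 genes are near-identical in part, and how reads shared by them were counted is not stated, so their counts are less certain. Klrd1 and Klrc1, whose products together read Qa-1, had 936 and 112 CPM with the OX40 agonist, against 845 and 126 CPM in control.

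Between the libraries, cDC1 and cDC2 differed most in the 3 Q genes, and mature migratory DCs in H2-Q4 and H2-Q6. H2-Q7 in mature migratory DCs was 0.906-fold (0.854 to 0.962), nearer 1 than H2-T23 at 0.838-fold (0.778 to 0.903). In cDC1 (123 OX40 agonist and 75 control cells) 3 of 9 members were lower by 1.5-fold or more, against 4.28% of genes, with a median of -0.28. H2-Q4 had 23.5 CPM with the OX40 agonist and 42.5 CPM in control there, H2-Q6 had 41.1 CPM with the OX40 agonist and 80.6 CPM in control, and H2-Q7 had 153 CPM with the OX40 agonist and 274 CPM in control, 0.557-fold (0.476 to 0.652). In cDC2 (92 OX40 agonist and 77 control cells) the same 3 genes were past 1.5-fold, against 6.57%, with H2-Q7 at 77.7 CPM with the OX40 agonist and 169 CPM in control, 0.46-fold (0.337 to 0.623), and a median of -0.09 over the 9. H2-Q6 in cDC2 passed 10 CPM in control alone. H2-K1 and H2-D1 were 0.99-fold (0.912 to 1.07) and 0.989-fold (0.927 to 1.05) in cDC2. In mature migratory DCs (443 OX40 agonist and 235 control cells) 1 of 9 was past 1.5-fold, against 0.611%: H2-Q4 had 114 CPM with the OX40 agonist and 188 CPM in control, 0.607-fold (0.529 to 0.697).

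The 8 types with at least 50 cells in each library were also taken gene by gene, counting a type only where the gene reached 10 CPM in either library, which leaves melanoma cells out for 5 genes. H2-Q4 and H2-Q6 had a counting interval wholly below 1 in 7 of 7 leukocyte types. Their folds spanned 0.442 to 0.772 for H2-Q4 and 0.323 to 0.872 for H2-Q6, and H2-Q7 was below 1 in 6 of 7, all but NK cells. H2-T23 was below 1 in 5 of 7 types and H2-M3 in 1 of 7. With melanoma cells counted, H2-D1 was below 1 in 5 of 8 types, H2-K1 in 4, and B2m and H2-T22 in 3 each. The share of all genes with an interval wholly below 1 was 17.7% in melanoma cells, 20.7% in phagocytes, 21.8% in CD8 T cells, 11.7% in cDC1, 8.73% in mature migratory DCs, 7.47% in regulatory T cells, 6.34% in cDC2 and 6.25% in NK cells. In melanoma cells H2-Q4 and H2-Q6 were at 0.932% and 1.04% of their leukocyte level with the OX40 agonist and at 2.11% and 1.57% in control, beside 0.9% with the OX40 agonist and 1.63% in control for the leukocyte genes. The types come from the same pair of libraries and so are no replicates of each other.

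In summed UMIs conventional CD4 T cells went the other way, but on 89 OX40 agonist and 47 control cells. All 9 log2 ratios were positive there, where 51.5% of all genes tested had a negative one. Their median was 0.35, beside -0.02 over all genes. The interval was wholly above 1 for 6 of 9, against 6.65% of genes. B2m had 3404 CPM with the OX40 agonist and 2609 CPM in control, 1.3-fold (1.2 to 1.41). H2-M3 alone was past 1.5-fold, against 13.7% of genes higher, on 35 UMIs with the OX40 agonist and 8 in control. The direction was not uniform as a mean over cells of CPM per cell. H2-K1 then had 4133 CPM with the OX40 agonist and 4547 CPM in control. H2-Q4 had 129 CPM with the OX40 agonist and 161 CPM in control. The other members stayed higher with the OX40 agonist on that scale. Plasmacytoid DCs (47 OX40 agonist and 23 control cells), neutrophils (105 OX40 agonist and 39 control cells) and B cells (50 OX40 agonist and 16 control cells) were too few for more than levels.

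The genes whose levels were most like those of a classical chain or B2m were found by Pearson's r of log2(CPM + 10) over 19 groups of cell type and library, among 2254 genes at 50 CPM or more in at least 10 of these groups. For H2-K1 they were Dock2 (0.961), Nsd1 (0.953), Grk2 (0.945), Dock8 (0.943) and Xist (0.942). For H2-D1 they were Cd47 (0.920), Dusp5 (0.919), Traf1 (0.918), Selplg (0.917) and Socs1 (0.915). For B2m they included Rab21 (0.833), Tank (0.833), Birc2 (0.831) and Rab8b (0.820). The 2 melanoma groups weighed on these orders: over the 17 leukocyte groups, none of the 5 stayed among the first 5 for H2-K1 or H2-D1, and Tank (0.890) and Rab21 (0.863) did for B2m. The groups share libraries and depth, so r is a description.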

How the data were processed

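The 2 droplet libraries (10x Genomics 3′ v3), 1 per group, were analysed. The authors deposited UMI counts per gene and barcode as whole numbers, without normalization. They were made with Cell Ranger on mm10 per the submitters' processing notes, with software version 3.1.0 per the file headers. No source used here says how reads shared by near-identical genes were counted.

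Barcodes were kept at 500 or more UMIs, 200 or more genes and a mitochondrial share of 10% or less. A neighbour-based doublet score was computed on simulated doublets, and the highest 0.8% per 1000 barcodes of each library were removed, since the automatic threshold marked at most 0.0128% of barcodes. Each cell was scored by marker genes and gated at a score of 0.25 with a lead of 0.1 over the next class. Gated T cells were split on raw UMIs. CD8 T cells had 2 or more of Cd8a and Cd8b1, regulatory T cells 1 or more of Foxp3, and conventional CD4 T cells Cd4 without Foxp3. Each split also needed a ratio of 3 over the opposing genes. Regulatory T cells whose Foxp3 was missed can thus be among conventional CD4 T cells. Each phagocyte took its highest-scoring subset, with no minimum score or lead. UMIs were summed per library and class and scaled to CPM. Folds carry exact conditional intervals, levels exact Poisson intervals and shares exact Clopper-Pearson intervals (95%). Log2 ratios used CPM + 10. Size counts used 1.5-fold on that scale among genes at 10 CPM or more in either library. These calculations were tested on simulated data. Beside the 9 members, up to 4 genes per list and class with the largest absolute log2 ratio were named; Calr, Canx, Pdia3, Actb, Gzmb, Nfkb1, Rela, Hfe, Klrd1, Klrc1, Ifng, Pirb and further Tap1 and H2-M2 values were added after their values were seen. The members, gene lists and markers were chosen with earlier results of these data known. Live cells were taken as DAPI-negative from the sorting protocol, although the series' design text gives the opposite sign. Values of some listed genes are not reported here. Software was Python 3.11.15, numpy 2.4.6, scipy 1.17.1, pandas 2.3.3 and scanpy 1.11.5.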

Additional observations from a re-analysis of the deposited data

Results flagged for a closer look

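B2m differed in direction between cell types under the same contrast. Its fold of OX40 agonist over control was 0.482 in melanoma cells and 1.04 in CD8 T cells, with counting intervals on either side of 1. The difference between the types was not tested, since each group is 1 library. The melanoma droplets with the OX40 agonist also held less leukocyte RNA, 0.9% of the leukocyte level against 1.63% in control. In melanoma cells without a leukocyte UMI the B2m fold was 0.464, and with leukocyte RNA taken off its log2 ratio was -1.05, beside -1.04 as counted.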

How the results depend on the processing

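The median log2 ratio of the members stayed below 0 under all 15 alternatives in melanoma cells (-1.17 to -0.41), all 14 in mononuclear phagocytes (-0.57 to -0.31) and all 12 in CD8 T cells (-0.16 to -0.06), and no value reversed. The melanoma median was -0.79 with no doublet removal, where 6 members passed 10 CPM, -0.89 with cells thinned to 1000 UMIs, where 5 did, and -0.41 with no minimum level, which adds the 5 members under 10 CPM. The phagocyte median was -0.31 with thinned cells and -0.41 as a mean over cells, and the CD8 median was -0.16 with thinned cells; the cause was not tested. As a percentage of the leukocyte level, H2-K1 in melanoma cells was 1.71 with the OX40 agonist and 4.48 in control when thinned, and 3.71 in control as a mean over cells. H2-D1 was 12.2 with the OX40 agonist and 30.7 in control when thinned, and 11.6 with the OX40 agonist and 26.4 in control as a mean over cells. Unthinned shares of cells with a UMI were 47.2% with the OX40 agonist and 58.9% in control for H2-K1, and 90% with the OX40 agonist and 88.5% in control for H2-D1. H2-K1 in CD8 T cells crossed 0 (-0.05 to 0.01). Alternatives on deep melanoma cells, leukocyte RNA taken off, phagocytes without T cell UMIs and shared barcodes were chosen after seeing the data. No paired analysis was possible because each group is 1 library. Counting error, not replicate spread, is all the intervals hold; cDC2, with 7 UMIs of H2-Q6 in the OX40 agonist library, is the shallowest comparison named above 50 cells.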
